A study of Mus musculus with 53 samples.

Results

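The mouse mitochondrial genome is a small circular chromosome that is kept in many copies per cell and encodes its own ribosomal RNAs, transfer RNAs and a few subunits of the respiratory chain. Its members here were all genes whose symbol begins with mt-. The rule found 37 genes among the 53379 gene identifiers of the count tables, namely 2 rRNA genes, 13 protein genes and 22 tRNA genes, and all 37 had a row in each table. They were followed in 3 tables of raw read counts from laser-captured hypothalamic nuclei of C57BL/6 mice, 1 table each for the female paraventricular nucleus (PVN), the male PVN and the male arcuate nucleus (ARC). The mice were Nnat+/+ or Nnat+/-p, which are heterozygous and inherited the targeted copy of Nnat (neuronatin, an imprinted gene read from the paternal allele) from their fathers. The study asked what differs in these nuclei between Nnat+/-p mice that became obese, Nnat+/-p mice that did not and Nnat+/+ mice, and what a high-fat diet does to both genotypes.

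All mice were adult, and the protocol gives an age of 13 to 14 weeks and speaks of male mice only, although 1 table is labelled female. On chow, the female PVN gave 4 Nnat+/+ libraries (24.1 to 24.6 g), 3 from non-obese Nnat+/-p mice (20.4 to 23.9 g) and 3 from obese Nnat+/-p mice (31.5 to 33.35 g). The male PVN gave 3 Nnat+/+ (31.4 to 33.5 g), 3 non-obese Nnat+/-p (27.4 to 34.3 g) and 4 obese Nnat+/-p libraries (38.8 to 46.5 g) on chow, and 6 Nnat+/+ (37.4 to 42.9 g) and 3 Nnat+/-p libraries (38.2 to 43.9 g) on a high-fat diet (HFD, 45% fat). The male ARC gave 2 Nnat+/+ (31.4 to 33.5 g), 4 non-obese Nnat+/-p (27.4 to 34.3 g) and 4 obese Nnat+/-p libraries (38.8 to 46.5 g) on chow, and 6 Nnat+/+ (37.4 to 43.9 g) and 4 Nnat+/-p libraries (38.2 to 43.1 g) on HFD. The targeted allele is inherited and so present in every cell, and a captured nucleus holds neurons, glia and vessels together, so in these bulk samples fewer cells of a type and less RNA per cell cannot be told apart. The labels do not say that the libraries of a group came from separate animals, so p-values measure only the spread between these libraries, which may be technical. ARC non-obese Nnat+/-p replicates 39 and 40 carry the same weight (34.3 g), as do female Nnat+/+ replicates 1 and 2 (24.1 g). Each was kept as a library of its own.

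The 49 libraries used held between 1479953 and 30228973 counts (median 5948222). Replicates 5, 7 and 35 were left out for totals of 2302, 812815 and 271324 counts, and replicate 32 because its label and its table name different nuclei. Nnat lay at 228 to 540 CPM (counts scaled to a common library total) in the 21 Nnat+/+ libraries and at 0.27 to 16.9 CPM in the 28 Nnat+/-p libraries, with no overlap. Male PVN chow Nnat+/+ replicate 15 goes against its nucleus label, with summed PVN markers (Avp, Oxt, Sim1, Crh, Trh) at 9.77 CPM and ARC markers at 162 CPM. Female replicates 2, 3 and 10 stand apart by their nuclear long noncoding RNA (19520 to 22390 CPM, against 3212 to 5919 CPM in the other 7). Differences in protein gene share that rest on these libraries are given below with and without them.

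In mitochondria, both strands are transcribed into long precursors, and most tRNAs sit between the other genes, where their excision by RNase P and Elac2 releases the rRNAs and mRNAs on either side. mt-Rnr1 and mt-Rnr2 are the small and large ribosomal RNAs. The protein genes are core subunits of complex I (the mt-Nd genes), complex III (mt-Cytb), complex IV (mt-Co1, mt-Co2, mt-Co3) and ATP synthase (mt-Atp6, mt-Atp8). Nuclear chromosomes carry old copies of mitochondrial sequence, and a short read from a gene that has a near-identical copy fits both places.

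The sequences that matter for reading the counts are those where a mitochondrial gene and an annotated nuclear transcript share every 50-base word, since the reads were 50 bases long. They are shown from the GENCODE transcripts of GRCm38, 5' to 3', with bases that lie in a shared word in capitals and bases found in no shared word in lower case. The first is a stretch of 120 bases of mt-Nd4 (chrM:10983-11102, exonic, plus strand), in which the capitals end at base 876 of the gene, the last base of the nuclear pseudogene copy Gm28439. The second is 120 bases of mt-Co1 (chrM:6334-6453, exonic, plus strand), in which the capitals begin just after base 1066 and run on to the end of the gene. The third is the whole of mt-Nd4l (chrM:9877-10173, plus strand), which Gm10222 copies from base 1 to base 294.
mt-Nd4: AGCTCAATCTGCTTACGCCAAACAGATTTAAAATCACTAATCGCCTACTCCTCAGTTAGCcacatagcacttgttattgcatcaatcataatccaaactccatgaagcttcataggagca
mt-Co1: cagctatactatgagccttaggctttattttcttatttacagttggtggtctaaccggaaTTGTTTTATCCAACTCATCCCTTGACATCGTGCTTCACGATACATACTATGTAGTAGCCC
mt-Nd4l: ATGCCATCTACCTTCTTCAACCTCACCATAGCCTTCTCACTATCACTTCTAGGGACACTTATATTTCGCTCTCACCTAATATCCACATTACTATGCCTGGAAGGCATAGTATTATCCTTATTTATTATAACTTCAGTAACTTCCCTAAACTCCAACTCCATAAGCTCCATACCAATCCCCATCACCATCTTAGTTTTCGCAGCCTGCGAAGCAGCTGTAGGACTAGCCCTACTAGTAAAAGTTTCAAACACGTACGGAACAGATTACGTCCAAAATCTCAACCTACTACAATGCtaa
In mt-Nd4 the switch falls inside a single coding exon, and in mt-Nd4l only the last 3 bases are in lower case.

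The members without counts lie within 1 span of the mitochondrial genome, which also holds members with many counts. Of the 37 genes, 11 were listed at 0 in all 49 libraries: the protein genes mt-Co2, mt-Atp8, mt-Co3 and mt-Nd4l and the tRNA genes mt-Tn, mt-Ty, mt-Ts1, mt-Td, mt-Tk, mt-Tg and mt-Th. They lie between chrM:5089-11612, a span that holds 17 members wholly. In the same span mt-Co1 had 1149191 counts in all and mt-Nd4 had 618276, while mt-Atp6 had 1 count in all, mt-Nd3 had 270 and the 9 tRNA genes had 91 between them. The 13 tRNA genes outside it had 57 to 12858 counts each and 34048 together, and tRNA genes of both kinds lie within 59 to 75 bp. mt-Co2 and mt-Co3 encode core subunits that every respiring cell uses, so these genes are given as listed at 0 and are compared no further.

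The genes without counts were of both kinds. Of the 11 at 0, mt-Co2, mt-Co3 and mt-Nd4l shared all or nearly all of their words, and mt-Atp8 and the 7 tRNA genes shared 0. The shared portion was 100% of the 50-base words in mt-Co2, 99.9% in mt-Co3, 99.5% in mt-Atp6, 98.8% in mt-Nd4l and 98% in mt-Nd3. It was 62.2% in mt-Nd4 and 51.1% in mt-Co1, 8.19% in mt-Nd2, 7.61% in mt-Nd5 and 1.04% in mt-Rnr2. mt-Nd1, mt-Nd6, mt-Cytb and mt-Rnr1 shared none.

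Most of this sharing traces to 1 block of nuclear pseudogenes. Its 7 annotated copies lie at chr1:24611535-24616197 (4663 bp) in the same order as chrM:6381-11042 (4662 bp). Over the 4149 bases that could be compared, 7 differed. Gm28439, Gm28437, Gm28661, Gm10925 and Gm10222 differed at 0 bases from mt-Nd4, mt-Co3, mt-Co2, mt-Atp6 and mt-Nd4l, Gm28438 at 1 of 345 bases from mt-Nd3, and Gm29216 at 6 of 492 from mt-Co1. The 11 members that lie wholly inside the stretch had 299 counts of the 106836647 on all members.

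mt-Atp8 and the tRNA genes of the span shared no word with an annotated transcript and still had no or few counts. mt-Atp8, mt-Ts1, mt-Td, mt-Tk, mt-Tg and mt-Tr lie between the annotated copies of the block, in nuclear sequence that was not read here because no genome sequence was used, whereas mt-Tn, mt-Tc and mt-Ty lie before the stretch and mt-Th after it. mt-Atp8 (chrM:7766-7969, plus strand), whose last bases overlap the start of mt-Atp6, is shown as a gene at 0 without a capital letter.
mt-Atp8: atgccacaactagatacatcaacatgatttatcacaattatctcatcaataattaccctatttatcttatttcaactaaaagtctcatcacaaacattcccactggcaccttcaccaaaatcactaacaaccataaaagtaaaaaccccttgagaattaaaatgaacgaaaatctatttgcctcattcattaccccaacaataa
How the counting treated reads that fit more than 1 place is not given in the sources used here, and its part in these zeros was not tested. The copies themselves had few counts: Gm28661 had 705 over all 49 libraries, Gm28439 415 and Gm28437 299, with the highest single value of each in ARC HFD Nnat+/+ replicate 45. For mt-Co2, mt-Atp6, mt-Co3, mt-Nd3 and mt-Nd4l neither the mitochondrial nor the nuclear name held many counts.

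**Figure D1:**
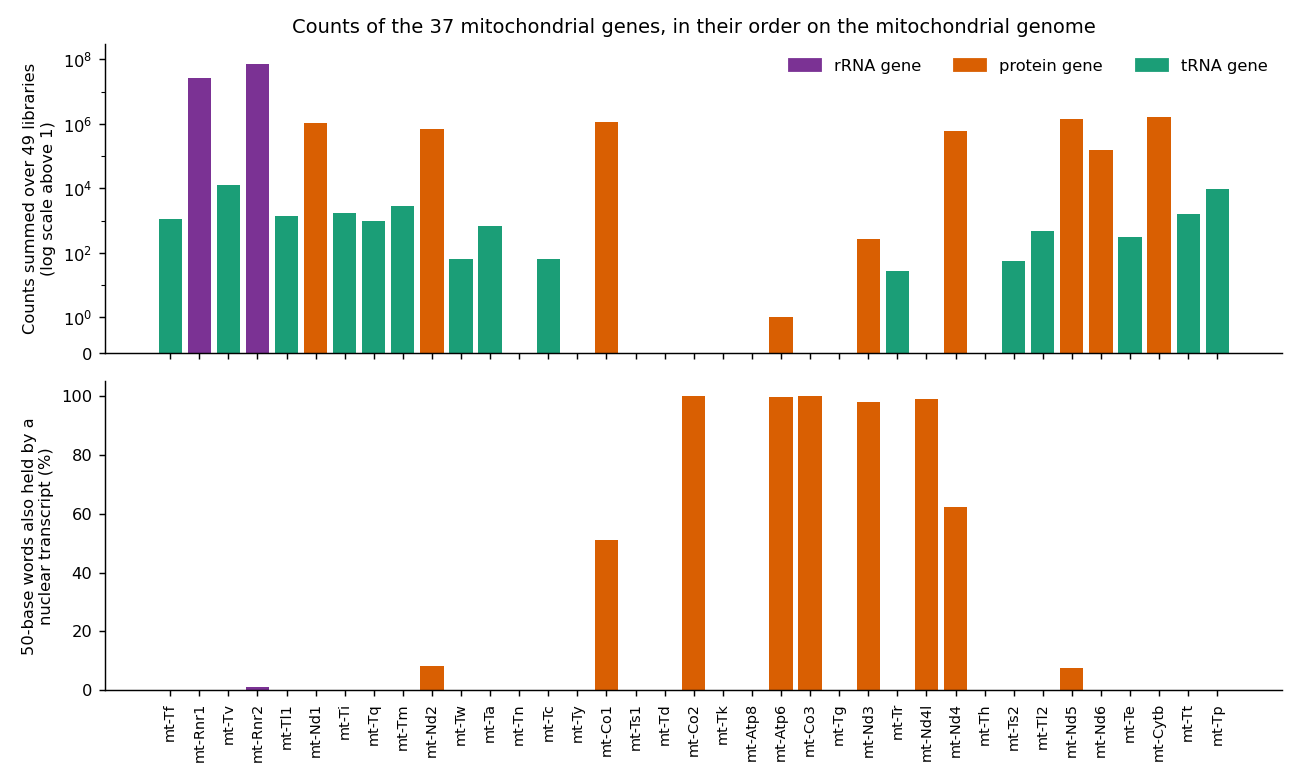
The upper panel gives each member's counts summed over the 49 libraries (log scale above 1) in the order of the genes on the mitochondrial genome, coloured as rRNA, protein or tRNA gene, and the lower panel the percent of its 50-base words that an annotated nuclear transcript also holds. A reader should see that mt-Co2, mt-Atp6, mt-Co3, mt-Nd3 and mt-Nd4l, with 98 to 100% of words shared, had from 0 to 270 counts, and that mt-Atp8 and 7 tRNA genes had 0 with no shared word.

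The ribosomal RNAs made up 93.6% of all counts on the members, the protein genes 6.33% and the tRNA genes 0.032%. Of every library's counts, the 37 genes together took 16.5 to 39.3% in the female PVN (median 21.3%, n = 10), 26.3 to 37.4% in the male PVN (median 32.0%, n = 19) and 28.7 to 48.8% in the male ARC (median 35.8%, n = 20). The rRNA genes alone took 14.6 to 37.5%, 24.4 to 35.2% and 26.7 to 46.9%. The protein genes took 1.24 to 2.12% (median 1.86%), 1.11 to 2.23% (median 1.61%) and 1.21 to 2.81% (median 1.95%). As counted, a total mitochondrial share is thus nearly all rRNA, and it hides the protein genes. mt-Co2, mt-Atp8, mt-Atp6, mt-Co3, mt-Nd3 and mt-Nd4l had from 0 to 270 counts in all. The protein gene share thus rests almost wholly on the other 7 protein genes, and how far it understates the 13 was not tested. Each nucleus and sex stands in a table of its own, so nucleus, sex and any batch that goes with a table cannot be told apart in these ranges. The kit used (SMARTer Stranded Total RNA-Seq v2, Pico Input) includes a step that removes rRNA-derived cDNA, and how far that step ran in each library was not tested.

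7 protein genes had counts in every library: mt-Nd1, mt-Nd2, mt-Co1, mt-Nd4, mt-Nd5, mt-Nd6 and mt-Cytb. Per kb of gene, mt-Cytb had the highest level in the male PVN and mt-Nd6 the lowest. Relative to mt-Cytb, levels per kb in the male PVN had medians over 19 libraries of 0.744 for mt-Nd1, 0.507 for mt-Co1, 0.498 for mt-Nd5, 0.463 for mt-Nd2, 0.28 for mt-Nd4 and 0.137 for mt-Nd6. The order changed when counts were divided by the number of words found only in the mitochondrial gene. mt-Co1 then moved to 1.02 (0.883 to 1.26), level with mt-Cytb, and mt-Nd4 to 0.735 (0.674 to 0.825), within the range of mt-Nd1. mt-Nd1 (0.75), mt-Nd2 (0.507), mt-Nd5 (0.53) and mt-Nd6 (0.144) moved little. In the male ARC the same correction took the median of mt-Co1 from 0.405 to 0.819 and that of mt-Nd4 from 0.283 to 0.743, and in the female PVN it took mt-Co1 from 0.578 to 1.17 and mt-Nd4 from 0.326 to 0.857. For both genes the level depended on which length was used.

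**Figure D2:**
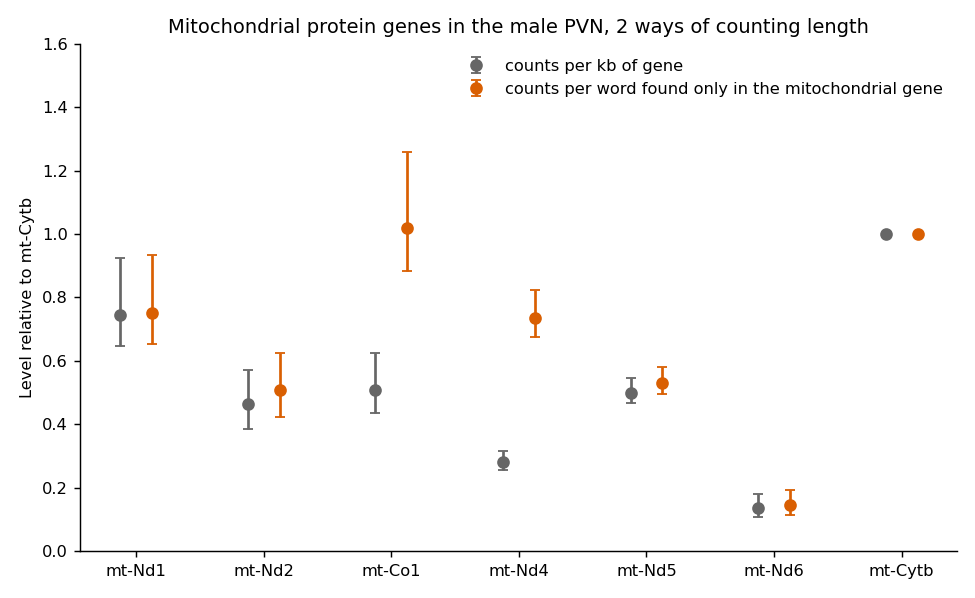
Median level of 7 mitochondrial protein genes relative to mt-Cytb in the male PVN, with bars from the lowest to the highest of 19 libraries, once as counts per kb of gene (grey) and once as counts per word found only in the mitochondrial gene (orange). mt-Co1 moves from 0.507 to 1.02 and mt-Nd4 from 0.28 to 0.735, while the other genes stay near their place.

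The genes lie on both strands, 28 on the plus strand and 9 on the minus strand, the latter being mt-Nd6 and 8 tRNA genes. mt-Nd6, the only protein gene on its strand, took 1.25 to 2.07% of the protein gene counts in the male PVN and 1.02 to 2.09% in the male ARC. In the female PVN it ran from 1.82 to 9.39%. Among the female libraries it was 9.39% in replicate 2, 9.25% in replicate 3 and 6.08% in replicate 10, and 1.82 to 3.99% in the other 7. These are the same 3 libraries whose nuclear long noncoding RNA stood apart, 2 of them Nnat+/+ and 1 non-obese Nnat+/-p. Across the 10 female libraries the log2 protein gene share and the log2 share of that noncoding list had r = -0.759 (permutation p = 0.0092, adjusted 0.0805 over 35 relations) and Spearman's rho = -0.721 (permutation p = 0.0234, adjusted 0.159), and r = -0.885 without the 2 libraries farthest from the median of the list. Those 2 were replicates 3 and 10, so replicate 2, with the lowest protein gene share (1.24%), still stood apart. The relation without all 3 was not tested, and across the 10 libraries it did not pass the adjustment. How strand was used in counting is not given, so reads from mt-Nd6 and from the opposite strand of that stretch cannot be told apart.

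mt-Rnr2 took more counts than mt-Rnr1 in all 49 libraries, and the number of mt-Rnr2 counts per mt-Rnr1 count, which is not corrected for gene length (955 bp for mt-Rnr1, 1582 bp for mt-Rnr2), is compared here only between libraries. It was 2.56 to 3.141 in male PVN chow libraries, 2.538 to 3.129 in male PVN HFD libraries, 2.151 to 2.531 in male ARC chow libraries and 2.383 to 3.376 in male ARC HFD libraries. The lowest PVN chow value came from replicate 15, the library with ARC markers and few PVN markers, and without it the PVN chow range was 2.726 to 3.141, above every ARC chow library. The female PVN ranged from 2.764 to 3.959.

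In the male ARC, HFD libraries had less mitochondrial protein-coding RNA than chow libraries, with no overlap. The protein gene share of counts was 1.21 to 1.74% in the 10 HFD libraries (median 1.52%) and 2.17 to 2.81% in the 10 chow libraries (median 2.49%). Both genotypes showed it. The rRNA genes did not separate, with 27.3 to 46.9% on HFD and 26.7 to 46.2% on chow. All 20 libraries come from 1 table, so this contrast does not cross tables. The paper describes its HFD males as cohorts separate from those on chow, so diet and cohort cannot be told apart in the diet contrasts.

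The planned contrast set HFD Nnat+/+ against chow Nnat+/+ mice. The 6 HFD libraries had protein gene shares of 1.30, 1.36, 1.73, 1.74, 1.65 and 1.21% and the 2 chow libraries 2.39 and 2.66%. The means were 1.498% ± 0.237 (SD, n = 6) and 2.53% ± 0.188 (SD, n = 2), a fold of 0.593. The difference of -1.03 percentage points gave p = 0.0357 in a two-sided exact permutation test, the smallest p that 6 against 2 libraries allow, and 0.464 after adjustment over 13 comparisons of this share. It passes unadjusted and not adjusted, and only 2 chow libraries carry it. Without chow replicate 33 the difference was -1.16 and without replicate 34 -0.895, each with an exact p of 0.143.

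The same contrast in the other genotype was added after the data were seen. HFD Nnat+/-p libraries had 1.43, 1.44, 1.74 and 1.59%, and obese chow Nnat+/-p libraries 2.17, 2.38, 2.56 and 2.80%. The means were 1.55% ± 0.148 (SD, n = 4) and 2.48% ± 0.271 (SD, n = 4), a fold of 0.626, with an exact permutation p of 0.0286, the smallest that 4 against 4 allow. Leaving out any 1 of these 8 libraries gave 0.0286 again, the smallest exact p for 4 against 3. These repeats use the same libraries, whose groups did not overlap, and are no further check. Both groups of this contrast were heavy, 38.2 to 43.1 g on HFD and 38.8 to 46.5 g on chow, and the part of body weight was not tested. Non-obese chow Nnat+/-p libraries, at 2.55% ± 0.181 (SD, n = 4), lay with the obese ones.

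The separation remained with other denominators. Measured against nuclear counts only, the differences were -1.97 percentage points for Nnat+/+ and -2.01 for Nnat+/-p. Measured without the genes that share over 10% of their words they were -0.794 and -0.709. Against counts without mt-Rnr1, mt-Rnr2 and the rRNA-derived genes Gm42418, Gm26917 and Lars2, HFD libraries had 2.54 to 3.34% and chow libraries 3.72 to 5.23%, again with no overlap. The exact p was the smallest allowed in each case.

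**Figure D3:**
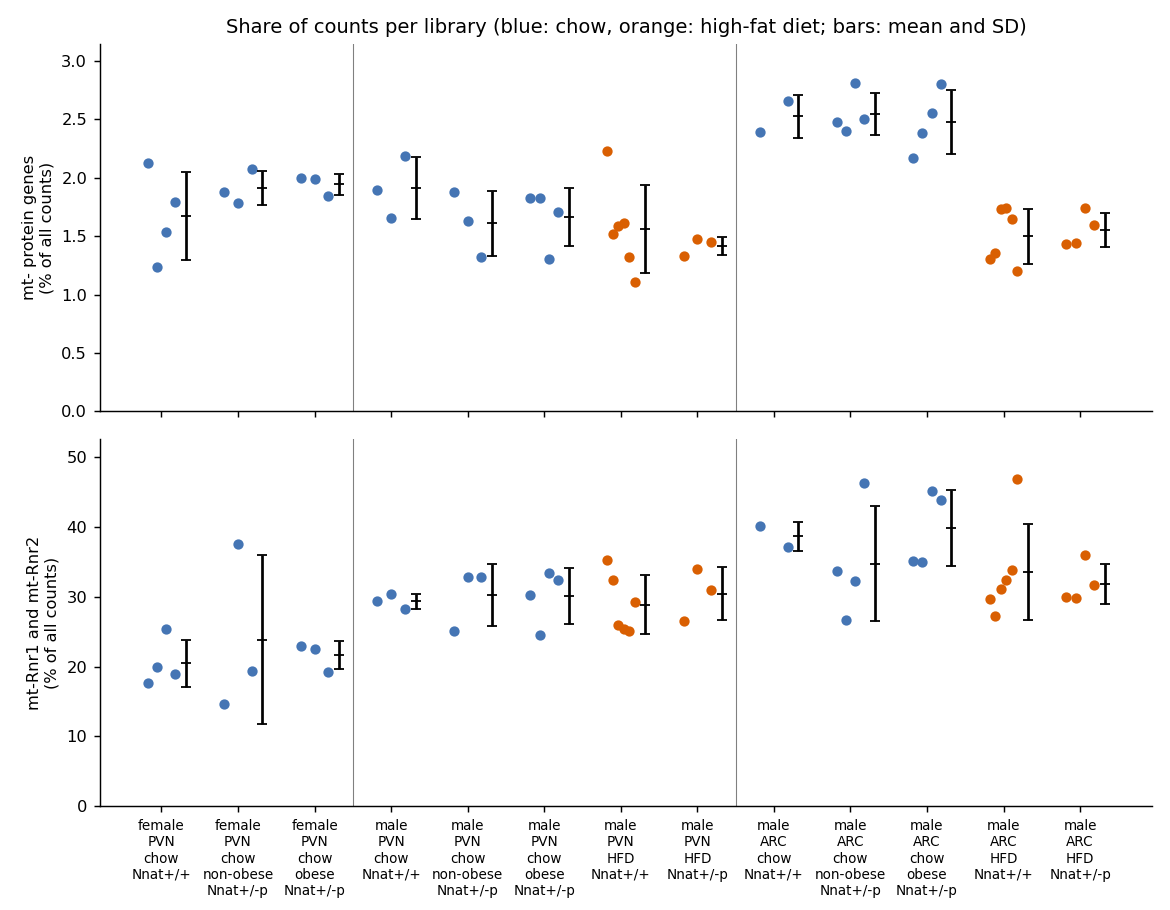
Percent of each library's counts on the mitochondrial protein genes (upper panel) and on mt-Rnr1 and mt-Rnr2 (lower panel) by group, with 1 point per library, chow in blue, HFD in orange and bars for mean and SD. In the male ARC the HFD libraries lie at 1.21 to 1.74% for protein genes, below every chow library at 2.17 to 2.81%, while the rRNA shares overlap.

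Gene by gene, mt-Cytb, mt-Nd4 and mt-Nd5 separated the diets completely. mt-Cytb, the mitochondrially encoded subunit of complex III, lay at 4682, 4825, 4401, 4640, 4134 and 3511 CPM in the HFD Nnat+/+ libraries and at 4444, 4133, 4726 and 3448 CPM in the HFD Nnat+/-p libraries. On chow it lay at 6151 and 7222 CPM in Nnat+/+, at 6194, 5388, 6076 and 6921 CPM in non-obese Nnat+/-p and at 5712, 6038, 6554 and 7575 CPM in obese Nnat+/-p libraries. The highest HFD library, at 4825 CPM, was below the lowest chow library, at 5388 CPM.

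The complex I subunits and the catalytic subunit of complex IV followed with more or less overlap. mt-Nd4 lay at 1165 to 1684 CPM on HFD and at 1956 to 2574 CPM on chow, and mt-Nd5 at 2593 to 3453 and 3649 to 4970 CPM, with no overlap. mt-Nd1 (2358 to 3276 against 2667 to 4785 CPM), mt-Nd2 (1253 to 2314 against 2236 to 3414 CPM) and mt-Co1 (2151 to 2795 against 2731 to 4154 CPM) overlapped through 1 chow library, non-obese Nnat+/-p replicate 39, the shallowest of the 49. mt-Nd6, on the other strand, overlapped widely, with 141 to 383 CPM on HFD and 225 to 426 CPM on chow. The rRNAs overlapped as well, with mt-Rnr1 at 68780 to 133900 CPM on HFD and 62400 to 133300 CPM on chow.

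By edgeR's quasi-likelihood test across all genes, at the study's threshold of an adjusted p under 0.25, 5 of the 21 members that passed the count filter were called in HFD against chow Nnat+/+, beside 1.16% of all 15753 genes tested (0.495% higher, 0.66% lower). The 4 that fell were mt-Nd2 with a log2 fold change of -0.70 ± 0.20 (SE, adjusted p = 0.194), mt-Nd4 with -0.66 ± 0.17 (0.144), mt-Nd5 with -0.57 ± 0.16 (0.211) and mt-Cytb with -0.64 ± 0.18 (0.190). mt-Tv, the tRNA gene between both rRNA genes, rose by 3.28 ± 1.00 (0.242). mt-Nd1 (-0.51, adjusted p = 0.332) and mt-Co1 (-0.48, 0.315) did not pass, nor did mt-Nd6 (-0.23, 0.905), mt-Rnr1 (-0.18, 0.919) and mt-Rnr2 (0.06, 0.978). At an unadjusted p under 0.05 there were 13 members, beside 8.54% of all genes. The median log2 fold change of the protein genes that passed the filter was -0.54, beside 0.02 over all genes.

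These calls sit close to the threshold. None remained at an adjusted p under 0.05. The count was 0 without chow replicate 33, without chow replicate 34 or without HFD replicate 46, 1 without replicate 44, 2 without replicate 48, 4 without replicate 45 or 47 and 5 without replicate 49. Replicates 44 and 51 carry weights that the labels of the PVN libraries give to the other genotype, and without both the count was also 0. DESeq2 called 8 members, beside 2.82% of genes.

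In HFD against obese chow Nnat+/-p mice, 10 of 21 members were called, beside 1.27% of all genes (1.06% higher, 0.209% lower). The 6 that fell were mt-Nd1 (log2 fold change -0.60 ± 0.16 SE, adjusted p = 0.142), mt-Nd2 (-0.64 ± 0.18, 0.166), mt-Co1 (-0.57 ± 0.15, 0.129), mt-Nd4 (-0.61 ± 0.15, 0.110), mt-Nd5 (-0.53 ± 0.15, 0.150) and mt-Cytb (-0.64 ± 0.16, 0.111). These are all the protein genes with counts in every library other than mt-Nd6 (-0.51, 0.536). The 4 that rose were the tRNA genes mt-Tf, mt-Tv, mt-Tm and mt-Tp. With ARC chow libraries alone 16 members passed the count filter, against 21 with the HFD libraries in the fit. Members low on chow could thus pass through the HFD libraries alone, so a rise in such members was favoured in advance and is no support. The rRNAs were not called, with -0.34 for mt-Rnr1 (0.670) and -0.20 for mt-Rnr2 (0.871). At an unadjusted p under 0.05 there were 12 members, beside 8.89% of genes, and DESeq2 also called 10, beside 2.14%. The edgeR count was 0 without chow replicate 41 or 42 or without HFD replicate 50, 3 without replicate 51 and 10 without replicate 36, 37, 52 or 53, and without replicates 44 and 51 together it was 3. None remained at an adjusted p under 0.05.

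**Figure D4:**
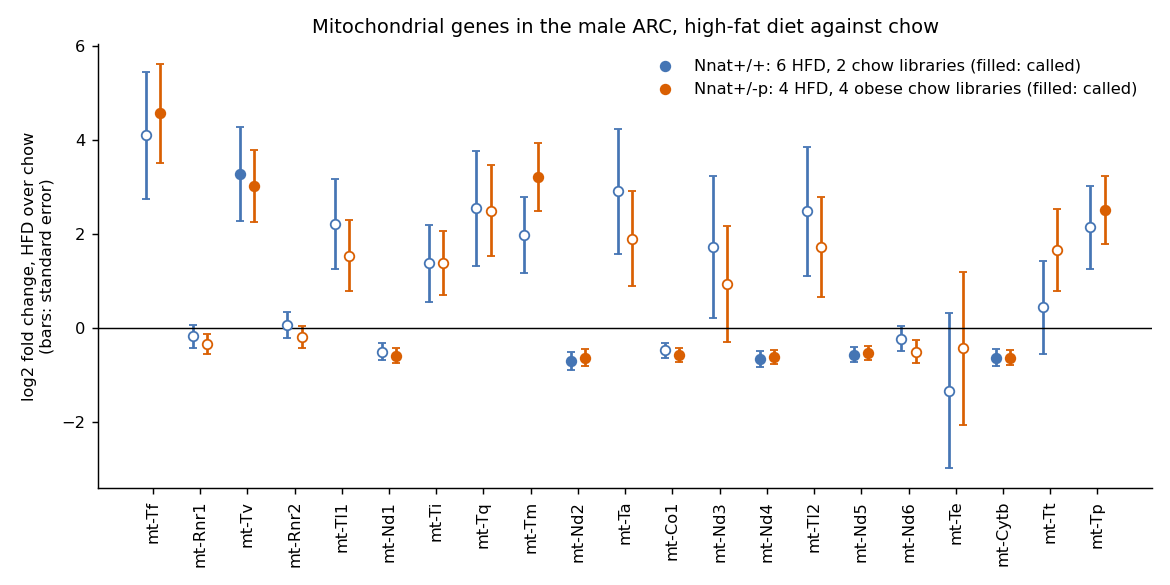
log2 fold change of HFD over chow in the male ARC by edgeR for the 21 members that passed the count filter, in genome order, with standard errors, for Nnat+/+ (blue) and Nnat+/-p (orange), filled where the adjusted p was under 0.25. mt-Nd2, mt-Nd4, mt-Nd5 and mt-Cytb are filled below 0 in both genotypes, the rRNAs sit near 0, and most tRNA genes lie above 0 with wide bars. Some members passed the filter only with the HFD libraries in the fit.

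The rRNA to protein gene ratio was higher in the HFD libraries of both genotypes and passed the test in Nnat+/-p. On the log2 scale it was 4.48 ± 0.412 (SD, n = 6) in HFD and 3.93 ± 0.187 (n = 2) in chow Nnat+/+ libraries, a difference of 0.54 that did not pass (exact permutation p = 0.179) although the groups did not overlap. HFD replicate 49, at 5.28, decided this, and without it the difference was 0.38 with an exact p of 0.0476. In Nnat+/-p libraries it was 4.36 ± 0.0326 (SD, n = 4) on HFD and 4.00 ± 0.110 (n = 4) on obese chow, a difference of 0.36 with an exact p of 0.0286. The rRNA share itself was 33.5% ± 6.92 against 38.6% ± 2.13 in Nnat+/+ (exact p = 0.393) and 31.8% ± 2.84 against 39.7% ± 5.45 in Nnat+/-p (exact p = 0.0857). All 37 genes together came to 35.0% ± 6.82 against 41.1% ± 1.95 in Nnat+/+ (exact p = 0.321) and to 33.4% ± 2.98 against 42.2% ± 5.67 in Nnat+/-p (exact p = 0.0857). Without replicate 49 the Nnat+/+ difference was -7.75 percentage points for the rRNA genes and -8.7 for all 37 genes, each with an exact p of 0.0476, so for these shares too 1 library decided the call.

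The tRNA genes called in these contrasts are printed because each spans little more than 1 read. mt-Tf lies at chrM:1-68, mt-Tv at chrM:1025-1093, mt-Tm at chrM:3845-3913 and mt-Tp at chrM:15356-15422 on the minus strand. mt-Tf and mt-Tv flank mt-Rnr1, and mt-Tm ends where mt-Nd2 begins. None holds a base in a shared word, so all letters are lower case.
mt-Tf: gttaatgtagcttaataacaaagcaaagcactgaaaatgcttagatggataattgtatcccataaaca
mt-Tv: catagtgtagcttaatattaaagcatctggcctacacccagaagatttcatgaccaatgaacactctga
mt-Tm: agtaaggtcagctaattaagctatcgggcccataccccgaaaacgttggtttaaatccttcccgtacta
mt-Tp: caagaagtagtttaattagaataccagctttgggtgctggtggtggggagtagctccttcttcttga
With 67 to 69 bases, these genes offer 18 to 20 positions to a read of 50 bases. The counts do not tell a mature tRNA from a precursor that still carries it.

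mt-Tv ranged over more than an order of magnitude within the ARC HFD libraries. It lay at 34.6, 421, 71.2, 128, 39.5 and 17.4 CPM in HFD Nnat+/+ and at 181, 73.2, 48.1 and 15.8 CPM in HFD Nnat+/-p libraries, against 9.15 and 15.4 CPM in chow Nnat+/+ and 14.3, 10.8, 7.27 and 6.32 CPM in obese chow Nnat+/-p libraries. Every HFD library was above the chow libraries of its own genotype contrast, and non-obese chow replicate 39, at 36.1 CPM, was above 3 HFD libraries. mt-Tp lay at 48.0, 308, 55.0, 80.4, 31.6 and 7.35 CPM in HFD Nnat+/+ and at 14.9 and 25.6 CPM in chow Nnat+/+ libraries, which overlapped through replicate 49. In the Nnat+/-p contrast mt-Tf rose by 4.56 ± 1.05 (log2, SE, edgeR adjusted p = 0.0743), mt-Tm by 3.21 ± 0.72 (0.062), mt-Tv by 3.01 ± 0.76 (0.116) and mt-Tp by 2.51 ± 0.72 (0.188). mt-Tf was near the floor, with a median of 4 counts over the 49 libraries and 594 of its 1158 counts in 1 library. As a share of counts, all tRNA genes came to 0.0194% ± 0.0155 on HFD and 0.00364% ± 0.00194 on obese chow (exact permutation p = 0.0857, n = 4 each), and to 0.0246% ± 0.0263 (n = 6) and 0.0059% ± 0.0005 (n = 2) in Nnat+/+ (exact p = 0.357). As a share they did not pass.

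In the ARC the tRNA share was higher in libraries with more Gm42418, a nuclear locus that overlaps a cytoplasmic ribosomal RNA repeat. Gm42418 took 4.47 to 31.3% of counts in ARC HFD libraries (median 12.9%) and 0.965 to 8.35% in ARC chow libraries (median 5.32%). Across the 10 ARC chow libraries the log2 shares of tRNA genes and Gm42418 had r = 0.908 (permutation p = 0.00015, adjusted 0.00525) and rho = 0.794 (permutation p = 0.00844, adjusted 0.0738), and r = 0.833 without the 2 libraries farthest from the Gm42418 median. Across the 10 ARC HFD libraries r was 0.822 (permutation p = 0.0037, adjusted 0.0648) and rho 0.818 (permutation p = 0.00589, adjusted 0.0738), with r = 0.674 without 2 libraries. In the other libraries the relation of tRNA genes and Gm42418 had lower r and no adjusted p under 0.05. It had r = 0.697 across the 10 female PVN libraries (permutation p = 0.0274, adjusted 0.191) with rho = 0.709 (permutation p = 0.0272, adjusted 0.159) and r = 0.688 without 2 libraries. Across the 10 PVN chow libraries r was 0.399 (permutation p = 0.249, adjusted 0.459) and rho 0.394 (permutation p = 0.264, adjusted 0.486), with r = 0.121 without 2 libraries. Across the 9 PVN HFD libraries r was 0.681 (exact permutation p = 0.0405, adjusted 0.191) and rho 0.667 (exact p = 0.0589, adjusted 0.258), with r = 0.519 without 2 libraries. Whether the relation differs between the nuclei was not tested. In the ARC the protein gene share and Gm42418 had r = -0.652 on chow (permutation p = 0.0436, adjusted 0.191) and r = -0.24 on HFD (permutation p = 0.5, adjusted 0.681). ARC HFD replicates 53 and 49, the lowest of their diet in Gm42418 (4.47 and 6.37%), had protein gene shares of 1.59 and 1.21%. Replicate 49 also had 46.9% on the mitochondrial rRNA genes. The part of Gm42418 in the protein gene difference between diets was not tested.

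**Figure D5:**
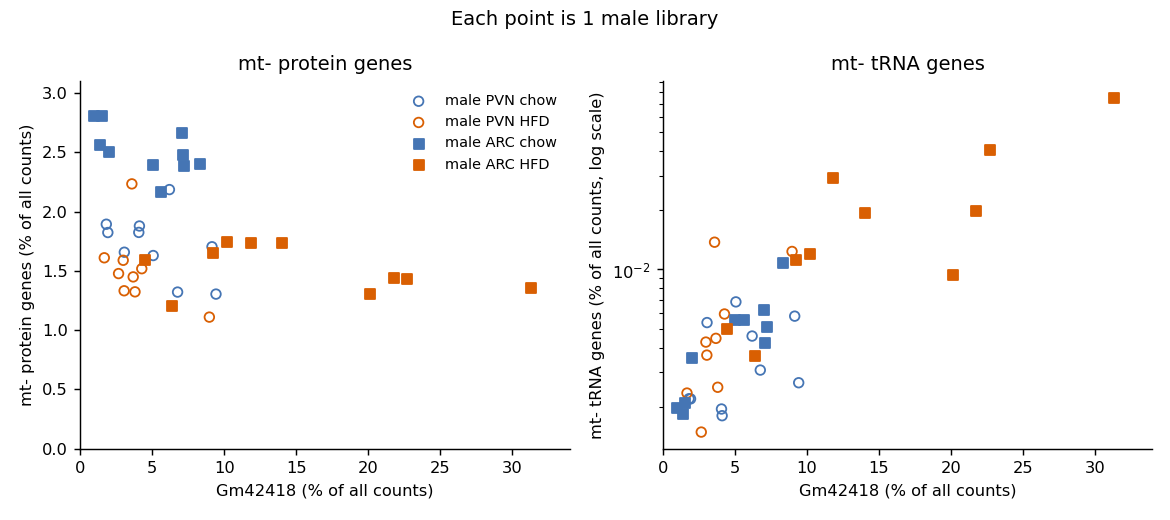
Percent of counts on the mitochondrial protein genes (left) and tRNA genes (right, log scale) against the percent on Gm42418, with 1 point per male library, PVN as open circles and ARC as filled squares, chow in blue and HFD in orange. In the ARC the protein gene shares were 1.21 to 1.74% in HFD libraries and 2.17 to 2.81% in chow libraries, while the tRNA share is higher where Gm42418 is higher.

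Other markers also moved with diet in the ARC libraries, and their part in the protein gene difference was not tested. The 6 neuronal markers summed to 521 to 1556 CPM on HFD and 1145 to 1800 CPM on chow, the 6 oligodendrocyte markers to 191 to 946 and 500 to 1002 CPM, the 6 astrocyte markers to 1052 to 1874 and 1458 to 2191 CPM, and the ARC markers Agrp, Npy, Pomc and Cartpt to 104 to 656 and 48.2 to 176 CPM. PVN markers summed to 6.80 to 57.6 CPM on HFD and 7.70 to 47.6 CPM on chow. In the Nnat+/+ contrast the myelin genes Mbp (log2 fold change -1.09, adjusted p = 0.0724) and Mobp (-1.25, 0.0604) of the oligodendrocyte list fell by edgeR, while the satiety peptide gene Cartpt (1.91, 0.0143) rose. The astrocyte filament gene Gfap (1.90, 0.231) rose as the only 1 of the 6 astrocyte genes called. It was also the only 1 at an unadjusted p under 0.05, and the list had a median log2 fold change of -0.195, beside 0.02 over all genes. In the Nnat+/-p contrast none of the 6 oligodendrocyte, 6 neuronal or 6 astrocyte genes was called, and Cartpt (0.88, 0.195) and Oxt (4.16, 0.116) rose. Microglial, endothelial, ependymal and haemoglobin lists had 0 genes called by edgeR in any comparison, with at most 1 at an unadjusted p under 0.05 in these ARC contrasts, and DESeq2 calls were not counted for them.

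For nuclear genes that serve the mitochondrial genome, calls in the ARC diet contrasts were near the background and are no result. There 1.16% (Nnat+/+) and 1.27% (Nnat+/-p) of all genes were called. Of the 34 genes tested for mitochondrial transcription and RNA processing, among them the polymerase Polrmt, the packaging factor Tfam, the mRNA stabilisers Lrpprc and Slirp and the tRNA processing genes, 0 were called by edgeR in either ARC diet contrast, with 0 at an unadjusted p under 0.05 in Nnat+/+ and 4 in Nnat+/-p, and DESeq2 calls were not counted for this list. Their median log2 fold change was -0.06 in Nnat+/+ and -0.03 in Nnat+/-p, beside 0.02 and -0.04 over all genes. Of the 21 nuclear-encoded respiratory chain subunits tested, which partner the mitochondrial ones, 1 fell in Nnat+/+, the complex I gene Ndufa9 (-0.79, adjusted p = 0.202), where 3 had an unadjusted p under 0.05. In Nnat+/-p 0 were called by edgeR and 1 had an unadjusted p under 0.05. Their medians were -0.08 and -0.04. Whether the mitochondrial genes changed more than these lists was not tested.

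In the male PVN the same diet contrasts gave smaller differences that did not pass with all libraries. The protein gene share was 1.11 to 2.23% in the 9 HFD libraries (median 1.48%) and 1.30 to 2.19% in the 10 chow libraries (median 1.76%), and the ranges overlapped. HFD Nnat+/+ libraries had 1.56% ± 0.379 (SD, n = 6) and chow Nnat+/+ libraries 1.91% ± 0.265 (n = 3), with an exact permutation p of 0.214 where 0.0119 is the smallest possible. This difference moved with single libraries. Without HFD replicate 23 (2.23%) it was -0.482 percentage points with an exact permutation p of 0.0179, and without chow replicate 15, the library with few PVN markers, it was -0.211 with an exact p of 0.5. HFD Nnat+/-p libraries had 1.42% ± 0.0770 (n = 3) and obese chow Nnat+/-p libraries 1.66% ± 0.246 (n = 4), with an exact p of 0.2 where 0.0286 is the smallest possible. Of 17 members tested, edgeR called 0 in either contrast, beside 1.43% of genes for Nnat+/+ and 0.262% for Nnat+/-p. At an unadjusted p under 0.05 there were 0 members, beside 10.3 and 7.53% of genes, and DESeq2 called 0, beside 2.48 and 2.31%. The log2 fold changes of the rRNA and protein genes lay between -0.36 and 0.10 for Nnat+/+ and between -0.38 and 0.01 for Nnat+/-p. The difference of the diet contrast between the nuclei, tested with the libraries unpaired, had exact permutation p = 0.178 for Nnat+/+ and 0.1 for Nnat+/-p. The PVN markers of replicate 23 were low (488 CPM, against 614 to 1740 CPM in the PVN chow libraries other than replicate 15), as were those of replicate 24 (150 CPM).

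Libraries of both nuclei that carry the same weight, genotype and diet in their labels gave 8 chow pairs and 7 HFD pairs. The ARC library had the higher protein gene share in all 8 chow pairs and in 6 of 7 HFD pairs. The exception was PVN replicate 23 with 2.23% against ARC replicate 45 with 1.36%. The nuclei stand in separate tables, and the labels do not say whether they were processed together, so the difference in level between them was not tested. What was tested, after the data were seen, is whether the difference within a pair was unlike on the 2 diets. ARC minus PVN was 0.0303 percentage points ± 0.410 (SD, n = 7, -0.874 to 0.327) in HFD pairs and 0.818 ± 0.355 (SD, n = 8, 0.344 to 1.26) in chow pairs, with no overlap and an exact permutation p of 0.000311 (two-sided, adjusted 0.00467 over 15 such tests). Without the pair of PVN replicate 23 the exact p was 0.002 (adjusted 0.01). The chow pairs were mostly Nnat+/-p (6 of 8) and the HFD pairs mostly Nnat+/+ (5 of 7). Within Nnat+/+ HFD minus chow pairs gave -0.786 points (5 against 2, exact p = 0.0952 where 0.0476 is the smallest possible) and within Nnat+/-p -0.644 (2 against 6, exact p = 0.107 where 0.0357 is the smallest possible). For the rRNA share the same test over all pairs did not pass (exact p = 0.178). These pairs rest on equal labels and are not stated to be the same mice. The rRNA shares of the 8 chow pairs had r = 0.834 (exact permutation p = 0.00791, adjusted 0.0805, r = 0.825 without 2 pairs) and rho = 0.881 (exact p = 0.00724, adjusted 0.0738), and those of the 7 HFD pairs r = -0.0922 (exact p = 0.835, adjusted 0.86) and rho = -0.143 (exact p = 0.783, adjusted 0.83).

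With all libraries, no difference of mitochondrial RNA between genotypes or between obese and non-obese mice passed a test in any of the 3 tables. In the male PVN on chow the protein gene share was 1.66% ± 0.246 in obese (n = 4) and 1.61% ± 0.279 in non-obese Nnat+/-p (n = 3) against 1.91% ± 0.265 in Nnat+/+ libraries (n = 3), with exact permutation p = 0.314 and 0.2 against Nnat+/+ and 0.714 between the Nnat+/-p groups. Without Nnat+/+ replicate 15 the differences from Nnat+/+ were -0.112 percentage points for obese (exact p = 0.667) and -0.165 for non-obese mice (exact p = 0.4). In the female PVN it was 1.94% ± 0.0873 (n = 3) and 1.91% ± 0.146 (n = 3) against 1.67% ± 0.377 (n = 4), with exact p = 0.343, 0.429 and 0.9. In the ARC on chow it was 2.48% ± 0.271 (n = 4) and 2.55% ± 0.181 (n = 4) against 2.53% ± 0.188 (n = 2), with exact p = 0.733, 0.933 and 0.686. On HFD, Nnat+/-p and Nnat+/+ libraries differed by -0.144 percentage points in the PVN (exact p = 0.595) and by 0.0537 in the ARC (exact p = 0.652). Designs of 3 against 3 cannot go below an exact p of 0.1 and those of 4 against 2 not below 0.0667, so for them no difference could have passed 0.05.

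The rRNA share in these genotype comparisons differed by 5.04 percentage points at most, between obese (39.7% ± 5.45, n = 4) and non-obese (34.7% ± 8.25, n = 4) chow Nnat+/-p libraries of the ARC (exact permutation p = 0.286). The shares of all 37 genes moved with it. The log2 ratio of rRNA to protein genes differed by 0.26 in that comparison (exact p = 0.2), and by 0.41 without non-obese replicate 43 (exact p = 0.0286). In the female PVN, non-obese Nnat+/-p replicate 10, with 37.5% on the rRNA genes against 14.6 and 19.4% in the other 2 of its group, gave a group SD of 12.0. Without female replicates 2, 3 and 10 the differences in protein gene share were -0.0142 for obese against Nnat+/+, 0.0186 for non-obese against Nnat+/+ and -0.0328 for obese against non-obese.

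In edgeR's test 0 members were called in all 11 comparisons of genotype or obesity, and DESeq2 called 0 as well. In the male PVN on chow 15 members were tested against Nnat+/+ in obese mice, against Nnat+/+ in non-obese mice and between both Nnat+/-p groups, where 0.0256%, 0.0128% and 0% of all genes were called. There, 0 members had an unadjusted p under 0.05, beside 3.51%, 2.56% and 1.66% of genes, and DESeq2 called 0.264%, 0.00873% and 0.00291% of genes. In the female PVN 17 members were tested in the same order of comparisons, beside 0.0129%, 0.00646% and 0% of genes called, and 2, 0 and 2 members had an unadjusted p under 0.05, beside 3.18%, 4% and 3.06% of genes. DESeq2 called 0.934%, 1.7% and 0.368% of genes there. In the ARC on chow 16 members were tested, beside 0.0205%, 0.0136% and 0.00682% of genes called, and 1, 0 and 0 had an unadjusted p under 0.05, beside 2.59%, 1.9% and 4.25% of genes. DESeq2 called 0.00993%, 0.00662% and 0.00331%. On HFD, Nnat+/-p against Nnat+/+ had 17 members tested in the PVN and 21 in the ARC, beside 0.00569% and 0.0127% of genes called (DESeq2 0.00261% and 0.00284%), and 2 and 0 members had an unadjusted p under 0.05, beside 0.99% and 4.54% of genes. A count of 0 members is near such backgrounds and is no result about the members. The fitted log2 fold changes of the rRNA genes and the 7 protein genes lay between -0.36 and 0.27 in the male PVN on chow, between -0.71 and 0.46 in the female PVN and between -0.32 and 0.31 in the ARC on chow.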

How the data were processed

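Laser-captured PVN and ARC from cresyl violet stained coronal sections were sequenced as single-end reads of 50 bases. The authors aligned them with STAR 2.5.0a to GRCm38 and deposited raw read counts per Ensembl gene in 3 tables, with no normalization; the handling of strand and of reads that fit several places is not given in the sources used here. Totals ran from 1479953 to 30228973 counts per library, and without molecular identifiers counting error understates the error of a value.

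The 37 members and all lists were chosen with earlier results of these data known. Symbols and transcripts came from GENCODE. Shares of counts were compared between groups by two-sided exact permutation tests of the difference of means, adjusted by Benjamini-Hochberg over 13 comparisons. Single genes were tested with edgeR 4.0.16 in R 4.3.3 (quasi-likelihood, TMM, minimum count 10 in filterByExpr, 1 fit per nucleus and sex, group as the only term), Benjamini-Hochberg adjusted over all genes tested and called at an adjusted p under 0.25. CPM values of single genes use TMM library sizes. Summed CPM values of the marker and noncoding lists use raw library totals, mitochondrial RNA included. Relations across libraries used 100000 permutations, or all of them below 10 libraries.

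The rule for named genes took all 37 members, Nnat as the check of genotype, and from each list the called genes, at most 3 per direction. A result of the marker lists is not reported here. The edgeR steps were tested on simulated data with 200 genes set to a 4-fold difference; for ARC HFD against chow Nnat+/+ 96.5% of them were recovered with 23.7% of calls false over 14991 genes, for male PVN obese against Nnat+/+ 91.5% and 21.5% over 14478 genes, and for female PVN obese against Nnat+/+ 37% and 16.9% over 14691 genes. Alternatives were DESeq2 1.42.0 and its size factors, library sizes from nuclear genes, every gene with a total count over 1, an adjusted p under 0.05, only the compared groups, nuclear counts as the denominator, replicates 39 and 40 (both 34.3 g) summed, the ARC and PVN libraries with conflicting weights left out, and each library left out in turn. Alternatives chosen after seeing the data were denominators and tables without Gm42418, Gm26917 and Lars2, protein genes with at most 10% shared words, female replicates 2, 3 and 10 left out, the diet contrast in Nnat+/-p mice, the tRNA share, the relations with Gm42418 and the diet contrast in pairs of PVN and ARC libraries with equal labels. A planned search of 50-base words in the genome was run on annotated transcripts instead. Replicates 5, 7, 32 and 35 were left out of every step.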

Additional observations from a re-analysis of the deposited data

Results flagged for a closer look

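Of 98 sets of 4 to 6 libraries of 1 group examined for a value far from the others by Dixon's criterion, 13 had one. The criterion flags about 1 in 20 independent sets by chance. Many of these sets hold the same libraries in related measures, so the 13 cannot be read against that rate. ARC HFD Nnat+/+ replicate 49 had 48.0% of its counts on all 37 genes (group median 33.5%), 46.9% on the rRNA genes (31.8%), mt-Rnr2 at 452000 CPM (249000 CPM) and a log2 rRNA to protein ratio of 5.28 (4.34). In the same group replicate 45, the deepest ARC library, had 0.075% on the tRNA genes (group median 0.0152%). In ARC HFD Nnat+/-p, replicate 53 had mt-Nd2 at 1250 CPM (median 1950 CPM). PVN HFD Nnat+/+ replicate 23 was high in 6 protein genes, with mt-Nd1 at 3740 CPM (group median 2370 CPM), mt-Nd2 at 2540 CPM (1550 CPM), mt-Co1 at 4160 CPM (2600 CPM), mt-Nd4 at 2110 CPM (1280 CPM), mt-Nd5 at 5080 CPM (2980 CPM) and mt-Cytb at 6260 CPM (3740 CPM); it is also a library with few PVN markers. PVN chow obese Nnat+/-p replicate 21 had mt-Nd1 at 3090 CPM (median 2510 CPM). Of 36 tests of whether a contrast differed between the nuclei or the sexes with the libraries unpaired, none passed, and the smallest exact permutation p was 0.0927. In pairs of equal labelled weight, genotype and diet, a test added after the data were seen found the ARC minus PVN difference in protein gene share to be -0.787 percentage points in HFD relative to chow pairs (exact permutation p = 0.000311), and -0.637 without PVN replicate 23 (exact p = 0.002). Within either genotype it did not pass.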

How the results depend on the processing

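No paired analysis was possible because the replicate numbers of the labels are unique to a library, so the groups compared within a table share none; pairs of PVN and ARC libraries, by equal labelled weight, genotype and diet, stand with the diet contrast. Over 1054 alternatives, 864 kept direction and side of the threshold, 91 fell below it, 5 rose above it with 1 library left out (PVN replicate 23, ARC replicates 43 and 49, given with their results), 18 moved and 76 turned direction; the turned ones belong to small differences that passed no test, and the causes were not tested. The ARC protein gene difference between diets kept its sign under all alternatives; in Nnat+/+ it ran from -1.16 to -0.895 percentage points with 1 library left out. Members called in that contrast were 0 at an adjusted p under 0.05, 11 with every gene over a total count of 1, 8 by DESeq2 and 0 without libraries of conflicting weight, and 0 to 5 with 1 library left out; in Nnat+/-p they were 0 at an adjusted p under 0.05, 3 without libraries of conflicting weight and 0 to 10 with 1 library left out. With every gene over a total count of 1, 1 member was called in PVN HFD against chow Nnat+/+ (0 to 1 with 1 library left out) and 1 in female obese against non-obese.
Without female replicates 2, 3 and 10, non-obese against Nnat+/+ gave -1.28 points for all members and -1.29 for rRNA, obese against non-obese 4.55 and 4.58 with -0.0328 for protein genes and 0.377 for the log2 ratio, and obese against Nnat+/+ -0.0142 and 0.241. Against nuclear counts, protein genes gave -0.0668 in female obese against non-obese, and 0.0629, -0.168 and 0.231 in the ARC chow comparisons (obese against Nnat+/+, non-obese against Nnat+/+, obese against non-obese). Without Gm42418, Gm26917 and Lars2, all members gave 0.279 and rRNA 0.207 in PVN obese against non-obese, and -1.09 and -0.786 in PVN Nnat+/-p HFD against chow; with mt-rRNA left out too, protein genes gave -0.0884 in female obese against non-obese, -0.338 in ARC non-obese against Nnat+/+ and 0.2 in ARC obese against non-obese. Without the genes of over 10% shared words, female obese against non-obese gave -0.0338.
With 1 library left out, all members ran from -0.474 to 2.32 (PVN obese against Nnat+/+), -0.711 to 3.05 (PVN non-obese against Nnat+/+), -2.55 to 1.72 (PVN obese against non-obese), -0.373 to 3.47 (PVN HFD genotypes), -3.14 to 8.24 (female non-obese against Nnat+/+), -6.83 to 4.55 (female obese against non-obese), -0.707 to 2.75 (ARC obese against Nnat+/+), -3.06 to 0.967 (ARC HFD genotypes), -8.7 to -4.72 (ARC Nnat+/+ diets) and -1.71 to 2.15 (PVN Nnat+/-p diets). For rRNA the same comparisons ran from -0.345 to 2.62, -0.397 to 3.48, -2.74 to 1.72, -0.197 to 3.57, -3.44 to 7.97, -6.83 to 4.58, -0.63 to 2.75, -3.05 to 0.981, -7.75 to -3.58 and -1.52 to 2.35, and PVN Nnat+/+ diets from -1.74 to 0.284. Protein genes ran from -0.0905 to 0.188 (PVN obese against non-obese), -0.482 to -0.211 (PVN Nnat+/+ diets), -0.0328 to 0.11 (female obese against non-obese), -0.18 to 0.0849 (ARC obese against Nnat+/+), -0.111 to 0.154 (ARC non-obese against Nnat+/+), -0.178 to 0.0343 (ARC obese against non-obese) and -0.0101 to 0.102 (ARC HFD genotypes). The log2 ratio ran from -0.304 to 0.144 (PVN obese against non-obese), -0.534 to 0.179 (female non-obese against Nnat+/+), -0.336 to 0.377 (female obese against non-obese), -0.0667 to 0.198 (ARC obese against Nnat+/+), 0.17 to 0.413 (ARC obese against non-obese), -0.179 to 0.0434 (ARC HFD genotypes) and 0.381 to 0.674 (ARC Nnat+/+ diets). Groups of 2 to 4 libraries and 50-base reads, which leave 11 members at 0, limit these data.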
